A study of Homo sapiens with 4 samples.

Results

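The 10 genes described here encode enzymes that build purine and pyrimidine nucleotides from small precursors. PPAT, GART, PFAS, PAICS, ADSL, ATIC and IMPDH2 belong to the purine route, and CAD, DHODH and UMPS make up the pyrimidine route. They were chosen by name, their transcript entries were summed per gene symbol, and all 10 were found among 16504 gene symbols with values. To find genes that depend on CEBPG, a transcription factor with a leucine zipper from the C/EBP family, the study sequenced RNA of 4 libraries labelled NB4, a line from human acute promyelocytic leukemia. There were 2 control libraries with CEBPG presence (titled NC) and 2 libraries with CEBPG knockdown (titled CEBPG3), with no time or dose. In the study, both kinds of cells carried short hairpin RNAs delivered by lentivirus and were selected with puromycin, and 1 knockdown label means that other hairpins cannot be compared here. Nothing says that replicates came from separate cultures, so p-values measure the spread between these libraries, which may be technical.

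The purine ring is assembled step by step on phosphoribosyl pyrophosphate (PRPP), with glutamine, glycine, aspartate, bicarbonate and formyl groups from folate as donors, until inosine monophosphate (IMP) is formed. IMP is then turned into adenine or guanine nucleotides. The pyrimidine ring is made first, from glutamine, bicarbonate and aspartate, and is joined to PRPP only at the end, giving uridine monophosphate (UMP). Dividing leukemia cells draw on both routes for RNA and DNA, and inhibitors of DHODH and of IMP dehydrogenase have been studied in blood cancers.

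CEBPG was at 17.1 and 18.1 FPKM (fragment density scaled by transcript length and library size) in the controls, against 6.91 and 7.96 FPKM after knockdown, a log2 fold change of -1.14 (limma, adjusted p = 0.000836), so the targeted gene was lower in both knockdown libraries. Read depth was unknown, since the table holds no counts. FPKM summed to between 346170 and 367105 per library. Markers did not match the label of the line. Of 15 erythroid markers, 12 were over 10 FPKM in every library and HBG2, a fetal globin gene, was at 2890 to 3766 FPKM, while SLC4A1 and AHSP were below 1 FPKM. Of 14 promyelocytic and myeloid markers, 13 had values, 8 of these were below 1 FPKM in every library, and AZU1 and PRTN3, which mark the granules of promyelocytes, did not pass 0.570 FPKM. The summed level of the erythroid markers was 7858 and 8327 FPKM in the controls, against 8734 and 9314 FPKM after knockdown, and that of the myeloid markers was 50.9 and 51.0 against 52.9 and 53.9 FPKM. This sum holds genes that differed in opposite directions. LYZ (lysozyme) and SPI1 (the transcription factor PU.1) were the 2 myeloid markers over 10 FPKM in every library, and LYZ fell (log2 fold change -0.30, limma, adjusted p = 0.0289), while SPI1 (0.15) and CD33 (0.65) were not called. The part of any difference in cell state in the results below was not tested.

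Upon CEBPG knockdown, DHODH, ATIC and IMPDH2 fell, and none of the other 7 enzyme genes passed the test. DHODH, the mitochondrial step of pyrimidine synthesis, had the largest difference, with 60.5% of the control level left. ATIC and IMPDH2, which stand at the end of the purine route and at the entry to guanine nucleotides, were at 84.3% and 83.2% of control, and their calls did not hold in every alternative. A gene was called at an adjusted p under 0.05 in limma, fitted to log2(FPKM + 1) across the 10968 genes whose mean reached 1 FPKM. Fold changes on this scale understate the change of low genes.

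All 10 members passed the filter on low values in both groups. Of all tested genes 20.9% were called in either direction. Called lower were 3 of 10 members (30%), against 9.99% of all tested genes. Called higher were 0 of 10 in limma, against 10.9% of all tested genes. At an unadjusted p under 0.05, 4 members were lower and 1 was higher, against 17.4% and 19.6% of all tested genes. The log2 fold change was below 0 for 9 of the 10, against 5186 of the 10968 tested genes. Its median was -0.12, beside 0.015 over all tested genes. Knockdown values were all below control values for 7 members (30.5% of all tested genes) and above both for 1 member, ADSL (34.3%). No member passed the threshold of the study, read as p under 0.05 and more than 1 unit of log2 change in size, which 0.602% of tested genes passed. The difference of the means was larger than the gap between replicates of either group for GART, ADSL, ATIC, IMPDH2 and DHODH. The share of all tested genes for which this holds was not computed, so it does not set these members apart. Bulk RNA does not tell a lower level per cell from a smaller share of expressing cells.

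**Figure D1:**
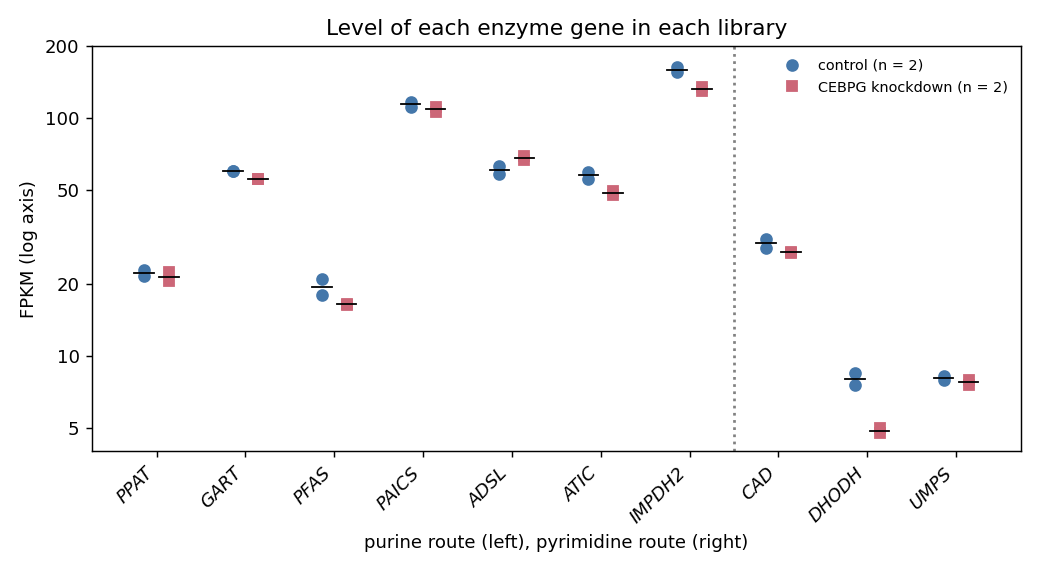
FPKM on a log axis for each of the 10 genes, with 1 circle per control library, 1 square per knockdown library and a bar at the mean of the 2 libraries. The DHODH squares, at 4.76 and 4.996 FPKM, lie well below its circles, at 7.60 and 8.52 FPKM, while the squares and circles of PPAT and PAICS overlap.

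In the pyrimidine route only DHODH was called. DHODH encodes dihydroorotate dehydrogenase, an enzyme of the inner mitochondrial membrane that oxidises dihydroorotate to orotate and hands the electrons to ubiquinone. The gene lies at chr16:72008588-72027664 (plus strand, GRCh38, GENCODE 44). It measured 7.60 and 8.52 FPKM in the controls, against 4.996 and 4.76 FPKM after knockdown. Both knockdown libraries were low and close to each other, and the groups did not overlap. On average it fell to 4.88 ± 0.165 FPKM (SD, n = 2) from a control mean of 8.06 ± 0.649 FPKM (SD, n = 2). Its log2 fold change was -0.62 (SE 0.082; limma, adjusted p = 0.00457), with a 95% confidence interval of -0.82 to -0.43, and 1.52% of tested genes had a lower value. DHODH was called in 11 of 11 alternatives, with a log2 fold change between -0.71 and -0.55.

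CAD encodes a single large protein with carbamoyl phosphate synthetase, aspartate transcarbamylase and dihydroorotase activity, which carries out the steps before DHODH. It lies at chr2:27217369-27243943 (plus strand). CAD measured 31.1 and 28.5 FPKM in the controls, against 27.1 and 27.4 FPKM after knockdown. The groups did not overlap, but control 2 lay close to the knockdown libraries, and the gap between the control libraries (2.64 FPKM) was larger than the difference of the means (2.49 FPKM). The log2 fold change was -0.12 (limma, adjusted p = 0.23), with an interval of -0.28 to 0.036. It was -0.058 without control 1 and -0.18 without control 2, and not called in either.

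UMPS encodes UMP synthase, which adds PRPP to orotate and removes the carboxyl group to give UMP. It lies at chr3:124730433-124749273 (plus strand). UMPS measured 8.23 and 7.98 FPKM in the controls, against 7.97 and 7.57 FPKM after knockdown. The values of control 2 and knockdown 1 nearly touched. The log2 fold change of -0.055 was not distinguished from 0 (limma, adjusted p = 0.609), and its interval ran from -0.22 to 0.11, apart from that of DHODH. It was -0.088 without knockdown 1, -0.036 without control 1 and -0.022 without knockdown 2.

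The enzymes before and after DHODH thus stood in another proportion to it. The ratio of UMPS to DHODH was 1.08 and 0.937 in the control libraries and 1.59 in both knockdown libraries. The ratio of CAD to DHODH was 4.09 and 3.34 in the controls, against 5.43 and 5.76 after knockdown. In both ratios the knockdown libraries were the higher ones with no overlap. DHODH is the denominator of both, so this separation largely restates its lower level and is no further result. These ratios are given as values, and no test was made of them. The smallest two-sided p of an exact permutation test with 2 libraries a group is 0.333.

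Of the 6 members of the purine route up to IMP, ATIC alone was called in limma. PPAT encodes amidophosphoribosyltransferase, which commits PRPP to purine synthesis. It lies at chr4:56393362-56435615 (minus strand). PPAT measured 21.8 and 23.1 FPKM in the controls, against 20.7 and 22.5 FPKM after knockdown. These values overlapped, and the log2 fold change was -0.053 (limma, adjusted p = 0.62; interval -0.22 to 0.11). Without knockdown 1 it was 0.0065.

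PAICS encodes a protein that carboxylates the imidazole ring and then adds aspartate to it. It is the neighbour of PPAT, on the plus strand of chromosome 4 at positions 56435741 to 56464578. PAICS measured 116.7 and 110.7 FPKM in the controls, against 105.7 and 111.0 FPKM after knockdown. Its groups overlapped as well, and the log2 fold change was -0.068 (limma, adjusted p = 0.45; interval -0.21 to 0.075). It ranged from -0.11 to -0.030 over the alternatives. The ratio of PAICS to PPAT was 5.36, 4.796, 5.12 and 4.93 in control 1, control 2, knockdown 1 and knockdown 2, with no separation of the groups. The annotation names 7 PAICS and 2 PPAT pseudogenes, so reads of these genes may be shared with copies.

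PPAT and PAICS are read in opposite directions from start sites that lie close together. In RefSeq (GRCh38.p14) these are at positions 56435615 and 56435752 of chromosome 4. The stretch of 136 bases between them, chr4:56435616-56435751, has a GC content of 75.0%. It is shown on the plus strand because it is the sequence shared by these members, and neither of them was called.
PPAT to PAICS: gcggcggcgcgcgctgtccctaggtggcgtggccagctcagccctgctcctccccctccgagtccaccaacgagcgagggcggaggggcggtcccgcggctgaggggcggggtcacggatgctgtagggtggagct

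GART encodes a protein with 3 activities of the purine route: glycinamide ribonucleotide synthetase, its formyltransferase and aminoimidazole ribonucleotide synthetase. The gene lies at chr21:33503931-33543491 (minus strand). GART measured 59.8 FPKM in both controls, against 55.2 and 55.3 FPKM after knockdown. The replicates were nearly equal and the groups did not overlap, with 92.5% of the control level left. The log2 fold change was -0.11 (limma, adjusted p = 0.186), with an interval of -0.24 to 0.017, and it was called in 0 of 11 alternatives.

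PFAS encodes formylglycinamidine ribonucleotide synthase, which brings in nitrogen from glutamine. It lies at chr17:8247618-8270491 (plus strand). PFAS measured 21.0 and 18.0 FPKM in the controls, against 16.6 and 16.5 FPKM after knockdown. Control 1 stood apart from the other 3 libraries. The log2 fold change was -0.22 (limma, adjusted p = 0.0989). It was -0.12 without control 1 and -0.33 without control 2. PFAS was called in 4 of 11 alternatives, among them the replicate block and both scalings of the libraries.

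ADSL was the member with a value above 0. It encodes adenylosuccinate lyase, which removes fumarate at 2 places, once on the way to IMP and once on the way to AMP. The gene lies at chr22:40346461-40390463 (plus strand). ADSL measured 62.8 and 58.2 FPKM in the controls, against 69.3 and 66.8 FPKM after knockdown. Both knockdown libraries were above both controls, at 112% of the control mean. The log2 fold change was 0.17 with an interval of 0.017 to 0.32, which did not pass the threshold over all genes (limma, adjusted p = 0.104). It was 0.22 without control 1, 0.11 without control 2 and 0.26 with the transcript of highest mean, and it was called in 1 of 11 alternatives.

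ATIC encodes the enzyme of the last formyl transfer and of the ring closure that yields IMP. It lies at chr2:215311956-215349773 (plus strand). ATIC measured 59.4 and 55.5 FPKM in the controls, against 47.4 and 49.5 FPKM after knockdown. The knockdown libraries were the lower ones, with no overlap. On average it fell to 48.5 ± 1.451 FPKM (SD, n = 2) from a control mean of 57.5 ± 2.80 FPKM (SD, n = 2), and the log2 fold change was -0.24 (SE 0.062; limma, adjusted p = 0.0375). ATIC was called in 5 of 11 alternatives. The call was lost without control 1, knockdown 1 or knockdown 2 (limma, adjusted p = 0.0896, 0.215 and 0.124), where the log2 fold change was -0.19, -0.21 and -0.27, and the adjusted p ranged from 0.0101 to 0.215 over all alternatives in limma.

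IMPDH2 encodes the main IMP dehydrogenase of dividing cells, the first step from IMP to guanine nucleotides. It lies at chr3:49024325-49029447 (minus strand). IMPDH2 measured 162 and 155 FPKM in the controls, against 135 and 129 FPKM after knockdown. The gap between the groups was wider than the gap within either. On average it fell to 132 ± 3.87 FPKM (SD, n = 2) from a control mean of 159 ± 5.41 FPKM (SD, n = 2), and the log2 fold change was -0.26 (SE 0.059; limma, adjusted p = 0.0236). IMPDH2 was called in 5 of 11 alternatives. The call was lost without control 1, knockdown 1 or knockdown 2 (limma, adjusted p = 0.0516, 0.121 and 0.181), where the log2 fold change was -0.23, -0.29 and -0.23, and the adjusted p ranged from 0.00124 to 0.181 over all alternatives in limma. In GENCODE 44, 32.8% of the exonic bases of IMPDH2 and 11.1% of those of ADSL are shared with exons of a longer or neighbouring gene, so part of these signals may be divided differently under another annotation.

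**Figure D2:**
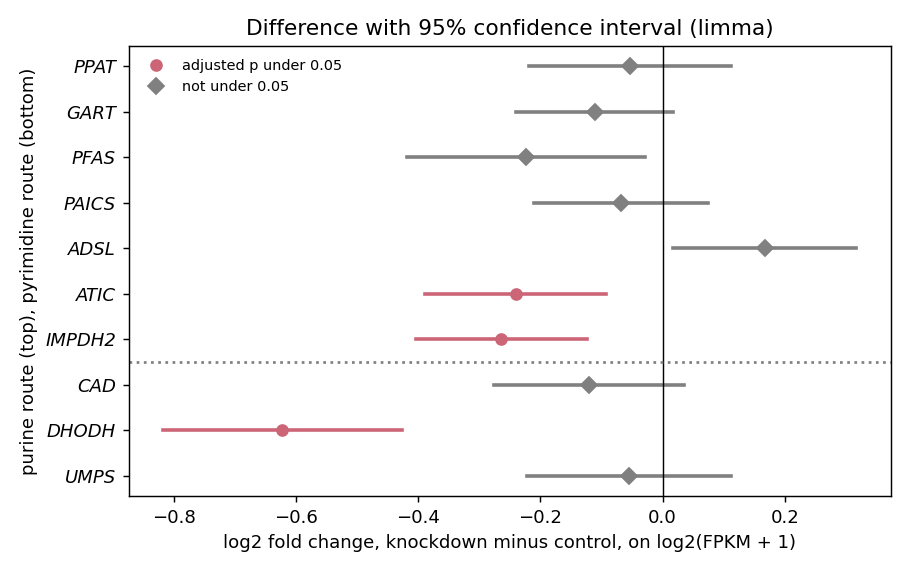
Log2 fold change (knockdown minus control, on the log2(FPKM + 1) scale) of each gene with its 95% confidence interval from limma, with circles for an adjusted p under 0.05 and diamonds for the rest. The interval of DHODH, -0.82 to -0.43, is the farthest from 0, and those of PPAT, GART, PAICS, CAD and UMPS include 0.

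FPKM is scaled by length, so levels can be set against each other between genes. In the control libraries the order of mean levels was IMPDH2 (159 FPKM), PAICS (114), ADSL (60.5), GART (59.8), ATIC (57.5), CAD (29.8), PPAT (22.4), PFAS (19.5), UMPS (8.11) and DHODH (8.06 FPKM). ADSL and GART overlapped in the control libraries, as did UMPS and DHODH, while all other neighbours in this order were apart. In the knockdown libraries all neighbours were apart, and the order of the 10 genes was the same. IMPDH2 was above 97.1% of tested genes in the control libraries and DHODH above 44.4%. The purine members summed to 504 and 480 FPKM in the controls, against 450 and 451 FPKM after knockdown, which is 91.5% of the control mean. The pyrimidine members summed to 46.9 and 44.96 FPKM against 40.1 and 39.8 FPKM, or 86.9% of the control mean. Without IMPDH2, the most abundant member, the sum of the other 9 was at 94.4% of control.

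Of the 10 members, 6 were listed as a single transcript and 4 as 3 transcripts each. In GART the main entry, NM_175085, held 74.3% and 77.3% of the gene total in the control libraries and 75.8% in both knockdown libraries. NM_001136005 held 13.2% to 14.3% and NM_000819 held 9.59% to 11.3%, so the proportions were alike in all 4 libraries. In PAICS, NM_001079524 held 79.7% and 85.7% in the controls, against 84.6% and 84.9% after knockdown. NM_006452 of PAICS was at 23.2 FPKM in control 1 and at 15.8 to 16.8 FPKM in the other 3, so that control 1 alone stood apart.

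The entries of ADSL and UMPS, described after their values were seen, did not all differ in one direction. NM_000026, the main entry, measured 56.8 and 49.3 FPKM in the controls, against 64.2 and 62.6 FPKM after knockdown. NM_001123378 measured 4.41 and 6.54 FPKM in the controls, against 3.19 and 2.21 FPKM after knockdown. The main entry was the higher one in the knockdown and the minor one the lower, without overlap in either. In UMPS the protein-coding entry NM_000373 measured 7.18 and 7.05 FPKM in the controls, against 7.38 and 7.13 FPKM after knockdown, and the noncoding entry NR_033437 was at 0.769 and 0.566 against 0.329 and 0.293 FPKM. The lower gene total of UMPS therefore came from its noncoding entries. How reads are divided between transcripts of a gene depends on the quantifier, and these differences were not tested.

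**Figure D3:**
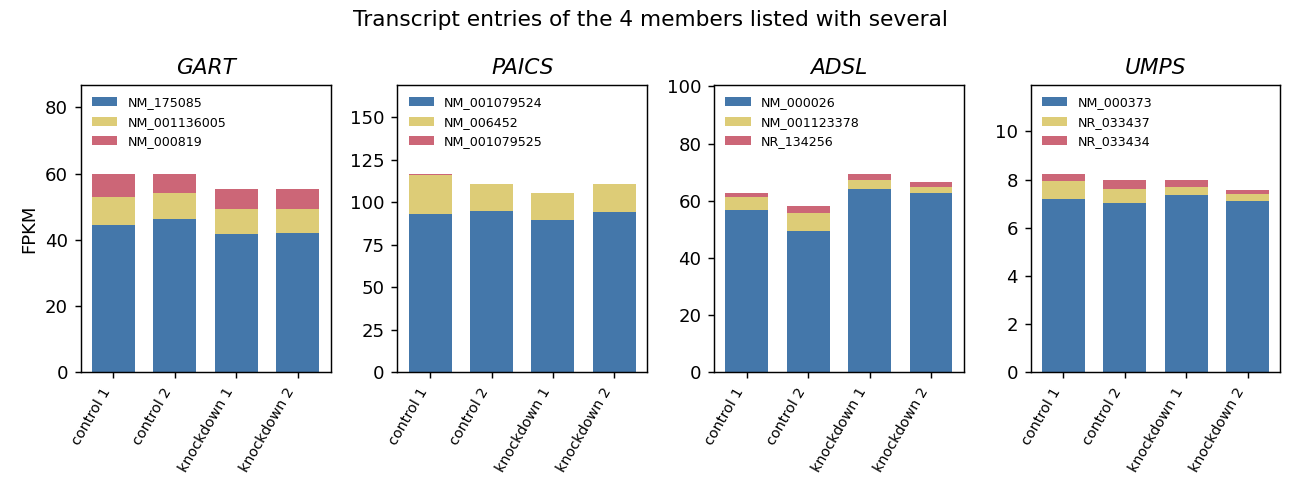
FPKM of each transcript entry, stacked to the gene total, for GART, PAICS, ADSL and UMPS in the 4 libraries. The main entry holds 74.3% to 77.3% of GART and 84.7% to 93.8% of ADSL, and the middle segment of ADSL (NM_001123378) is thinner in the knockdown libraries, at 2.21 and 3.19 FPKM against 4.41 and 6.54 FPKM.

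Promoter windows of 250 bases before to 50 bases after a start site were found in RefSeq (GRCh38.p14) for 8 of the 10 members, as 12 windows for CAD, ATIC, UMPS, PPAT, PAICS, DHODH, PFAS and GART. They were searched on both strands for 4 motifs. CACGTG, the E-box bound by MYC with MAX, was present in windows of DHODH, ATIC, PPAT and PAICS, which is 4 of 12 windows, against 7.23% of 34943 windows of all genes. TGATGNAA, the core of elements bound by pairs of CEBP and ATF proteins, was in 0 of the 12 windows and in 3.62% of all windows. TGACGTCA, the cyclic AMP response element, was in the window of UMPS and in 1.84% of all windows. CCAAT was in windows of CAD, DHODH and GART (5 of 12 windows) and in 34.6% of all windows. The 12 windows are not separate units, so these counts are not set against the shares as a test. Windows of PPAT and PAICS hold the same CACGTG site. The GART windows with start sites at 33542892 and 33542889 hold the same CCAAT matches. Matches of different motifs did not overlap, and a match does not show that a protein binds there.

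The sites below are shown because they set the called members DHODH and ATIC beside PPAT, PAICS and UMPS, which were not called. Capitals mark the motif, CACGTG in the first 3 and TGACGTCA in the last. The stretch shown for DHODH is chr16:72008573-72008602 on the plus strand, with the motif starting 159 bases before the RefSeq start site. That of ATIC is chr2:215312001-215312030 on the plus strand, with the motif starting 46 bases before the start site, and the promoter window of ATIC holds another CACGTG, not shown, that starts 29 bases after the start site. That of PPAT is chr4:56435780-56435809 on the minus strand. Its motif is also the one in the PAICS window and lies outside the stretch between their start sites. That of UMPS is chr3:124730394-124730423 on the plus strand, with the motif starting 47 bases before the start site.
DHODH: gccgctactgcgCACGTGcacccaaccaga
ATIC: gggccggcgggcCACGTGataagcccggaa
PPAT and PAICS: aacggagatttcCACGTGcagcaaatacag
UMPS: gacttcgcgggTGACGTCAtcggggcgccg
The E-box was thus present in called members and in members whose groups overlapped.

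Genes that feed these routes, use their products or regulate them were read from lists written from general knowledge, and of 107 listed genes 92 were tested. Besides CEBPG, 10 were called lower and 12 higher, in a fit that called 9.99% of all tested genes lower and 10.9% higher, and the counts per list below stand against the same shares. Of these 22 genes, 18 lost the call when at least 1 library was left out: 7 without control 1, 9 without control 2, 16 without knockdown 1 and 17 without knockdown 2. The other 4 were RRM2, NME3, GLUL and MXD1, all higher. Of the 22, 16 lost the call with no filter on low values and 17 with the transcript of highest mean in place of the sum, GLUL among the latter.

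To address the supply of PRPP, 11 genes of the pentose phosphate pathway and of PRPP synthesis were read. Of these, 1 was called lower and 1 higher, and their median log2 fold change was -0.084. TKT, the transketolase of the pentose phosphate pathway, measured 185 and 171 FPKM in the controls, against 149 and 134 FPKM after knockdown (log2 fold change -0.33, limma, adjusted p = 0.0243). TKT lost its call without control 1, without knockdown 1 and without knockdown 2, with values from -0.41 to -0.25 over the 4 fits that left out a library. PRPS1, a PRPP synthetase, was at 56.9 and 54.3 FPKM against 52.4 and 51.9 FPKM and was not called (limma, adjusted p = 0.301).

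Beyond IMP, 9 genes of the adenine and guanine branches gave 1 call in each direction and a median of 0.0060. ADSS1, a low gene for adenylosuccinate synthase, measured 2.47 and 2.38 FPKM in the controls, against 3.54 and 3.51 FPKM after knockdown (log2 fold change 0.40, limma, adjusted p = 0.0213), and it was not called in any of the 4 fits that left out a library. GMPS, the step after IMPDH2, measured 72.9 FPKM in both controls, against 65.7 and 69.4 FPKM after knockdown (-0.11, limma, adjusted p = 0.217). IMPDH1, the paralog of IMPDH2, was at 32.2 and 29.3 FPKM against 33.2 and 31.5 FPKM and overlapped. The ratio of IMPDH2 to IMPDH1 was 5.04 and 5.28 in the controls, against 4.06 and 4.10 after knockdown, with no overlap and no test.

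Of 12 genes that act on pyrimidine nucleotides after UMP, 1 was called lower and 4 were called higher, with a median of 0.010. NME3, a nucleoside diphosphate kinase, measured 19.8 and 19.0 FPKM in the controls, against 30.8 and 28.5 FPKM after knockdown (log2 fold change 0.59, limma, adjusted p = 0.00275). TYMS, thymidylate synthase, was at 175 and 169 FPKM against 218 and 208 FPKM (0.30, limma, adjusted p = 0.0145). NME1, another nucleoside diphosphate kinase, was at 175 and 205 FPKM against 139 and 141 FPKM (-0.43, limma, adjusted p = 0.0148), but it shares sequence with NME2 and a joint transcript, so its level is uncertain. TYMS and NME1 lost their calls without knockdown 1 and without knockdown 2, and over the 4 fits that left out a library they ranged from 0.27 to 0.34 and from -0.55 to -0.32. CMPK1 and CMPK2, kinases of UMP and CMP, were also called higher (0.23 and 0.28). Both lost the call with no filter on low values and without a mean trend, and CMPK2 also with the transcript of highest mean. Over the 4 fits that left out a library, CMPK1 ranged from 0.18 to 0.27 and CMPK2 from 0.23 to 0.34.

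The subunits of ribonucleotide reductase, which turns ribonucleotides into the precursors of DNA, differed in direction, with a median of -0.022 over 3 genes. RRM2, the small subunit, measured 78.0 and 76.1 FPKM in the controls, against 116 and 120 FPKM after knockdown (log2 fold change 0.61, limma, adjusted p = 0.00156). RRM1, the large subunit, was at 46.4 and 44.6 FPKM against 37.4 and 38.3 FPKM (-0.26, limma, adjusted p = 0.0233). RRM2 was called in 11 of 11 alternatives, and RRM1 in 5, being lost without control 1, knockdown 1 or knockdown 2 with values between -0.29 and -0.23. The ratio of RRM2 to RRM1 was 1.68 and 1.71 in the controls, against 3.101 and 3.13 after knockdown.

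**Figure D4:**
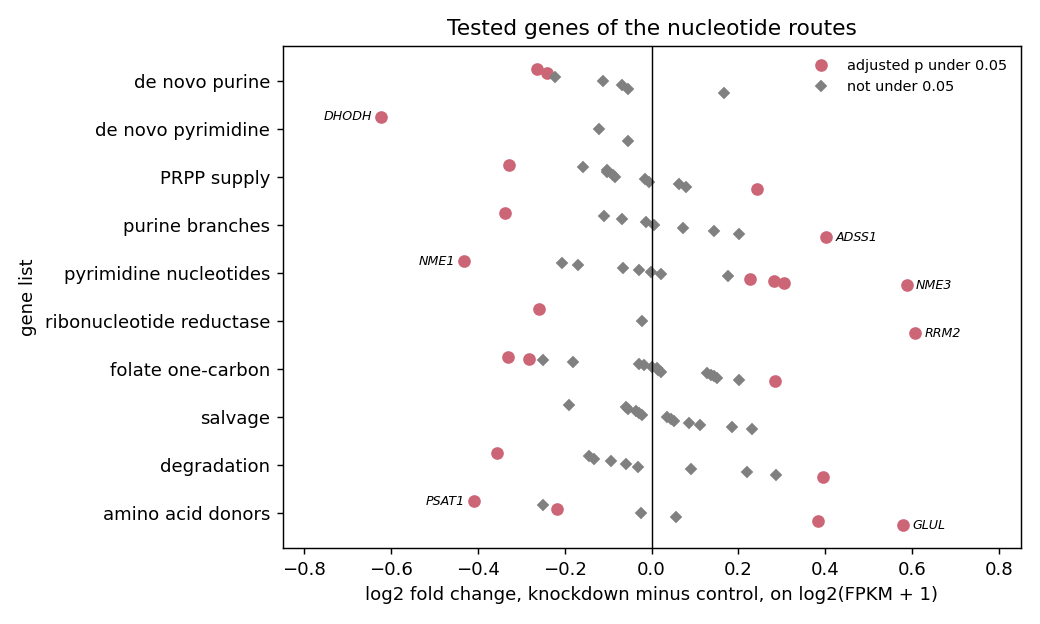
Log2 fold change (knockdown minus control, on the log2(FPKM + 1) scale) of each tested gene of the 2 de novo routes and of 8 related lists, with circles for an adjusted p under 0.05 in limma and diamonds for the rest. DHODH, at -0.62, lies farthest to the left, RRM2 (0.61), NME3 (0.59) and GLUL (0.58) lie farthest to the right, and no circle stands in the salvage list.

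Folate carries the formyl groups that GART and ATIC use. Of 20 folate and one-carbon genes 16 were tested, 2 were called lower and 1 higher, and the median was 0.014. SLC25A32, the mitochondrial folate carrier, measured 13.8 and 13.1 FPKM in the controls, against 16.2 and 16.9 FPKM after knockdown (log2 fold change 0.28, limma, adjusted p = 0.0266). MTHFS was called lower (-0.33) and kept its direction in 10 of 11 alternatives. SLC25A32 and MTHFS each kept the call in 1 of the 4 fits that left out a library. MTHFD2, the mitochondrial enzyme of this route, was at 111 and 110 FPKM against 111 and 112 FPKM, a log2 fold change of 0.015 (limma, adjusted p = 0.869), with an interval of -0.11 to 0.14.

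Salvage enzymes rebuild nucleotides from free bases and nucleosides. Of 17 listed 13 were tested and 0 were called in limma, with 2 higher and 0 lower at an unadjusted p under 0.05, and their median was 0.036. HPRT1 and APRT, which rescue purine bases, were at 48.3 and 45.8 against 49.9 and 50.1 FPKM and at 187 and 157 against 174 and 160 FPKM. Of 16 degradation genes 10 were tested. Of these, 1 was called lower, namely NT5M (-0.36, and -0.42 to -0.30 with a library left out). It lost the call with no filter on low values and with the transcript of highest mean, while 1 gene was called higher. The latter, AMPD2, which deaminates AMP to IMP, measured 12.7 and 11.7 FPKM in the controls, against 15.9 and 16.8 FPKM after knockdown (0.40, limma, adjusted p = 0.0119), and it lost its call without knockdown 2, with values from 0.34 to 0.45 over the 4 fits that left out a library.

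Among 7 genes for amino acid donors, 2 were called in each direction and the median was -0.023. GLUL, which makes glutamine, measured 73.5 and 69.3 FPKM in the controls, against 109 and 105 FPKM after knockdown (log2 fold change 0.58, limma, adjusted p = 0.0021). PHGDH, the entry to serine synthesis, was at 1264 and 1137 FPKM against 1608 and 1519 FPKM (0.38, limma, adjusted p = 0.0173). PSAT1, the step after PHGDH, moved the other way, from 93.7 and 93.3 FPKM to 68.5 and 72.0 FPKM (-0.41, limma, adjusted p = 0.00539). ASNS, asparagine synthetase, was called lower (-0.22). PSAT1 lost its call without knockdown 1, and PHGDH and ASNS lost theirs in 3 of the 4 fits that left out a library, with values from -0.44 to -0.37, from 0.31 to 0.46 and from -0.26 to -0.18.

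Of 12 regulators 11 were tested, 2 were called lower (CEBPG and MYC) and 1 higher, and the median was -0.020. MYC, which drives many genes of nucleotide synthesis, measured 178 and 162 FPKM in the controls, against 139 and 133 FPKM after knockdown (log2 fold change -0.31, limma, adjusted p = 0.0209). It was called without control 1 or control 2 but not without knockdown 1 or knockdown 2, with values from -0.38 to -0.25. MXD1, which competes with MYC for MAX, was at 6.75 and 6.61 FPKM against 9.46 and 9.48 FPKM (0.45, limma, adjusted p = 0.00667). MAX was at 37.4 and 34.7 against 35.6 and 35.5 FPKM, and ATF4, a partner of CEBPG, was at 232 and 211 against 241 and 228 FPKM. Neither was called (limma, adjusted p = 0.845 and 0.409). The part of MYC and MXD1 in the levels of the 10 enzyme genes was not tested.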

How the data were processed

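Total RNA of 4 libraries labelled NB4 was sequenced after preparation with an Illumina TruSeq kit. Per the labels, reads were mapped with HISAT2 2.0.5 to hg38. The authors deposited FPKM values for 29265 RefSeq entries, with a column per library. The quantifier and annotation release are not given in the sources used here. Entries without values (183) or without a symbol (164, with 0.25% of all FPKM) were left out, and 28918 transcripts were summed to 16504 symbols. Whole reads were not recovered: among 2798 low genes with a single transcript, the most common rounded ratio of the control libraries made up 1.14%. Depth is therefore unknown and no counting interval is given.

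Genes whose mean reached 1 FPKM were compared in limma 3.58.1 (R 4.3.3) on log2(FPKM + 1), using a mean trend in the empirical Bayes step. Tests were 2-sided, with Benjamini-Hochberg adjustment over 10968 genes, and the fit was tested on simulated data. The count-based test of the study was not used, since FPKM are not counts. The members and lists were chosen with earlier results of these data known. Named were all members, CEBPG, and of related lists at most 4 called genes per direction, with uncalled genes that complete a step. Some called genes of these lists are counted but not reported here by name. HPRT1, APRT, MAX, ATF4 and the transcripts of ADSL and UMPS were named after their values were seen. Alternatives were a pseudocount of 0.1, no filter, a replicate block, median-ratio scaling, scaling to one sum, the transcript with the highest mean, no trend, and each library left out. With 1 library left out, the lone library of a group is assumed to vary like the other group. Positions are from GENCODE 44, promoter sequences from RefSeq.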

Additional observations from a re-analysis of the deposited data

How the results depend on the processing

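Of the 10 members, DHODH kept its direction and its call in all 11 alternatives, as did CEBPG. The number of members called lower (3) was 1 with no filter on low values, with the transcript of highest mean and without a mean trend, that member being DHODH, and it was 1 to 4 when a library was left out. The number called higher (0) was 1 with the replicate block, namely ADSL (limma, adjusted p = 0.0301). The number of all genes called (2288) was 882 with no filter, 579 with the transcript of highest mean, 3440 with the replicate block and 825 to 1925 when a library was left out. UMPS reversed to 0.025 with the transcript of highest mean, which leaves out its noncoding entries, and PPAT to 0.0065 without knockdown 1, the library in which it was lowest (-0.11 without knockdown 2). Deviations of same-numbered libraries correlated at 0.101, and no label says what a shared replicate number stands for. PFAS was called with the replicate block, with both scalings and without control 2. No scaling moved the median of all genes by more than 0.019, and 9 of the 10 members were below 0 under each of them. Read depth is unknown, so what it limits could not be given.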
